A study of Bos indicus with 5 samples.

Results

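Blood and lymph vessels of the oviduct wall are built and maintained under the control of 2 linked families of secreted ligands and receptor tyrosine kinases, and 10 of their genes were examined in the ampulla, the wide segment of the oviduct next to the ovary. The ligands were VEGFA, VEGFB, VEGFC, ANGPT1 and ANGPT2, and the receptors were KDR, FLT1, FLT4, TEK and TIE1. These members were taken by gene symbol from the deposited ampulla table of 24616 genes, and each symbol matched 1 gene. Of the 10 members, 9 had a mean value over 5 and entered the test with 15815 genes in all, whereas ANGPT1 fell under this limit and was only described.

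The libraries came from multiparous Nelore cows, a Zebu beef breed, all presynchronized with cloprostenol, a prostaglandin F2α (PGF) analog, and the GnRH agonist buserelin. In all cows a new intravaginal device holding 1 g of progesterone (P4) was placed on day -10 together with 2 mg of estradiol benzoate, and cloprostenol was given at device removal and again 6 h later. Ovulation was induced in all cows on day 0 with buserelin, and tissue was taken on day 4. The LF/LCL cows (large follicle and large corpus luteum, CL) received an additional PGF injection on day -10 and had the device removed 42 h before GnRH, while in the SF/SCL cows (small follicle and small CL) it was removed 30 h before. The groups therefore differed in the size of the ovulatory follicle and CL and, by design, in estradiol before and P4 after ovulation. There were 2 LF/LCL and 3 SF/SCL libraries, each from a different cow. The sequenced cows were the top-ranked of the LF/LCL and the bottom-ranked of the SF/SCL cows, so the contrast is one of extremes. A further LF/LCL library was discarded by the authors for having few reads. The tissue covered the full thickness of the ipsilateral ampulla, with epithelium, stroma, muscle and vessels together. In such bulk tissue, fewer cells of a type and less RNA per cell cannot be told apart.

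VEGFA is the central inducer of blood vessel growth and permeability and acts through KDR, also named VEGFR-2, the main signaling receptor on endothelial cells. FLT1 (VEGFR-1) binds VEGFA and VEGFB tightly and, partly as a soluble form, limits the VEGFA available to KDR. VEGFC acts mainly on FLT4 (VEGFR-3), the receptor of lymphatic endothelium. The angiopoietins bind TEK, also named TIE2. ANGPT1, released by cells around vessels, activates TEK and keeps vessels quiet and tight, ANGPT2 is a context-dependent antagonist released by endothelial cells, and TIE1 is a partner of TEK with no well-defined ligand of its own. In the female reproductive tract these factors have been linked with the cyclic growth and regression of vessels in follicle, CL and uterus.

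The values given below are normalized reads, that is, the reads of a gene divided by the size factor of its library, and they are not corrected for gene length, so that levels are compared between libraries and not between genes. Libraries held between 13418278 and 19592174 reads assigned to genes, and the deepest in each group was replicate 2. Fold changes are on the log2(value + 1) scale as LF/LCL over SF/SCL, with the standard error (SE), and were tested with limma with Benjamini-Hochberg adjustment over all 15815 genes at a threshold of 0.05. At this threshold limma called 0 genes (0%), with 1819 genes (11.5%) under 0.05 before adjustment, and edgeR's quasi-likelihood test also called 0 genes (1828 unadjusted). DESeq2 on the recovered reads called 460 of 15201 genes (3.03%), and the edgeR exact test called 336 (2.12%).

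With both directions together, the 9 members tested stood apart no more often than all genes tested, by unadjusted p or by lack of overlap. Among these members 3 had a higher mean log2 value in LF/LCL and 6 in SF/SCL, 0 were called by limma or by edgeR's quasi-likelihood test, and 1, KDR, had an unadjusted p under 0.05 with either tool (11.5% of all genes with limma, 5.86% with the direction of KDR, and 11.6% with edgeR). DESeq2 and the edgeR exact test each called 1 member, again KDR, where they called 1.57% and 0.961% of all genes in its direction. The values of both groups were separate without overlap for 2 members, KDR and ANGPT2, both higher in SF/SCL, beside 30.1% of all genes tested (15.1% in this direction).

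**Figure D1:**
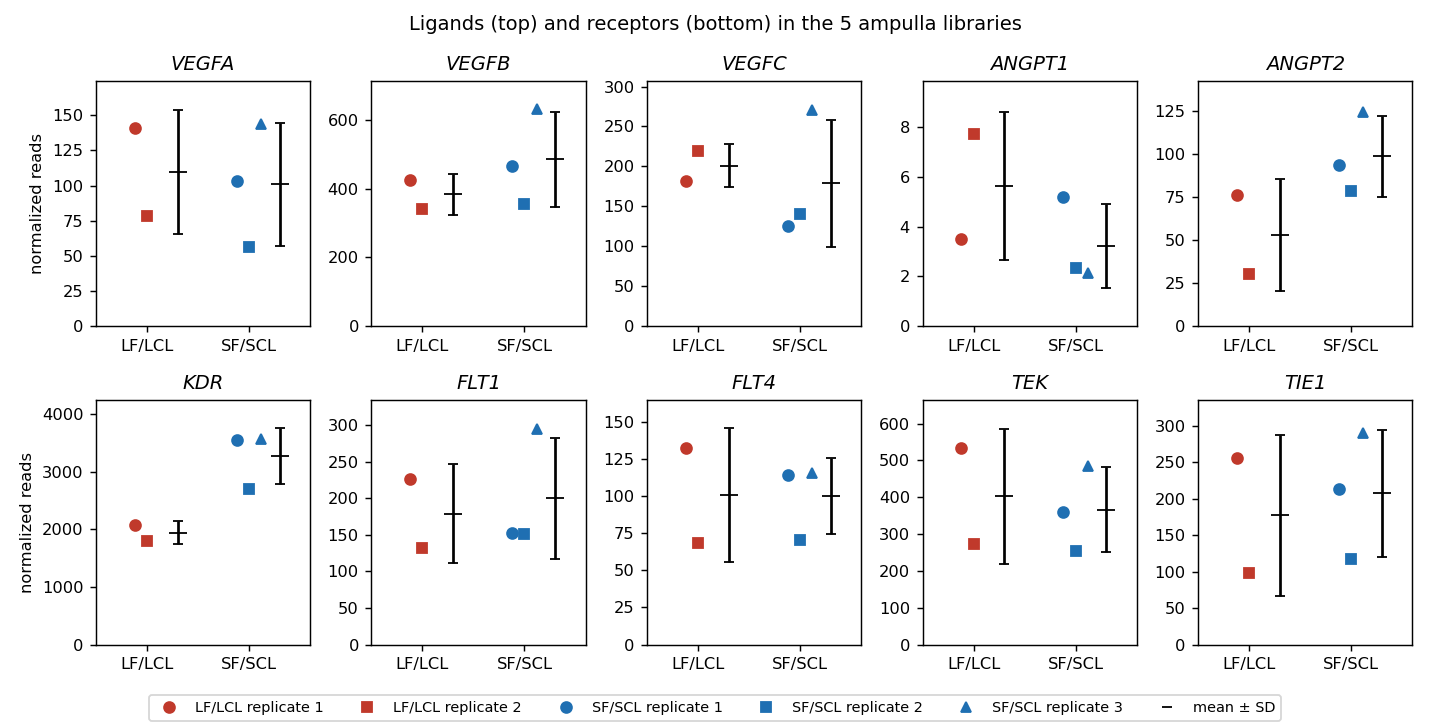
Normalized reads (linear y axis from 0) of the 5 ligands (top) and 5 receptors (bottom) in each LF/LCL (red) and SF/SCL (blue) library, with the group mean ± SD in black. KDR (1797.4 and 2080.5 in LF/LCL against 2699.1 to 3559.8 in SF/SCL) and ANGPT2 are the only members whose groups do not overlap. Over all genes tested, the groups do not overlap for 30.1%.

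Among the ligands, VEGFA was as variable within the groups as between them. Its values were 140.7 and 78.4 normalized reads in LF/LCL, against 102.9, 56.0 and 143.8 in SF/SCL. The lowest and the highest library both belonged to SF/SCL and enclosed the LF/LCL values. The LF/LCL mean was 109.6 ± 44.1 (SD, n = 2), the SF/SCL mean was 100.9 ± 44.0 (SD, n = 3), and the log2 fold change was 0.16 ± 0.48 (SE; limma adjusted p = 0.932).

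VEGFB, which binds FLT1 but not KDR, had the values 425.7 and 341.7 normalized reads in LF/LCL, against 465.8, 356.7 and 633.2 in SF/SCL. The highest library was SF/SCL replicate 3, and the other SF/SCL libraries lay close to those of LF/LCL. The means were 383.7 ± 59.4 (SD, n = 2) and 485.2 ± 139.3 (SD, n = 3), with a log2 fold change of -0.31 ± 0.26 (SE; limma adjusted p = 0.707).

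VEGFC, the lymphatic ligand, did not follow the same library pattern. It had 181.8 and 219.7 normalized reads in LF/LCL, against 125.8, 139.9 and 270.4 in SF/SCL. SF/SCL again held both the lowest and the highest value. The log2 fold change was 0.25 ± 0.36 (SE; limma adjusted p = 0.845), and the SD in SF/SCL (79.8, n = 3) exceeded the difference between the means of 200.8 and 178.7.

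ANGPT1 was hardly detected. The recovered reads were 3 and 8 in LF/LCL, against 5, 3 and 2 in SF/SCL, 21 reads in all, which correspond to 3.5, 7.7, 5.2, 2.3 and 2.1 normalized reads. At this depth a difference between the groups was not detectable, and any ratio to ANGPT1 carries the counting error of these few reads.

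ANGPT2 (ENSBTAG00000011034) had the largest log2 fold change of the 4 ligands tested. It had 76.2 and 30.0 normalized reads in LF/LCL, against 93.6, 78.5 and 124.5 in SF/SCL. Both groups stayed separate, but LF/LCL replicate 1 (76.2) lay next to SF/SCL replicate 2 (78.5), and most of the difference came from LF/LCL replicate 2. The means were 53.1 ± 32.7 (SD, n = 2) and 98.9 ± 23.4 (SD, n = 3), and the log2 fold change was -1.00 ± 0.46 (SE; limma adjusted p = 0.477). Without LF/LCL replicate 2 the log2 fold change was only -0.34, and without LF/LCL replicate 1 it was -1.66. The study also measured ANGPT2 RNA by qPCR in an expanded set of cows and reported no effect of group.

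KDR (ENSBTAG00000000782) had the smallest p of the members tested. It had 2080.5 and 1797.4 normalized reads in the LF/LCL libraries and 3546.4, 2699.1 and 3559.8 in the SF/SCL libraries. Every SF/SCL library was higher than both LF/LCL libraries, and the gap between the nearest libraries exceeded the SD of either group. The means were 1939 ± 200.2 (SD, n = 2) and 3268 ± 493.1 (SD, n = 3), 1.69-fold higher in SF/SCL. The log2 fold change of -0.75 ± 0.16 (SE) had an unadjusted p of 0.00312 and an adjusted p of 0.248 with limma, and an adjusted p of 0.263 with edgeR's quasi-likelihood test, neither of which passed the threshold. It passed with DESeq2 (adjusted p = 0.00671) and with the edgeR exact test (adjusted p = 0.0267). With limma, other settings and omitted libraries left the sign in place, and the log2 fold change ran from -0.88 to -0.64 when each library was left out in turn. KDR was on a list of cell development and motility genes that the study drew from its calls on these same libraries, so that list is not independent evidence of its direction.

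FLT1, the other VEGFA receptor, overlapped between the groups. It had 226.3 and 131.6 normalized reads in LF/LCL, against 152.8, 151.5 and 295.1 in SF/SCL. The groups were interleaved, with an LF/LCL library lowest and an SF/SCL library highest. The log2 fold change was -0.14 ± 0.39 (SE; limma adjusted p = 0.930).

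FLT4 was nearly equal in the means of the groups, at 100.6 ± 45.1 (SD, n = 2) for LF/LCL against 100.3 ± 25.7 (SD, n = 3) for SF/SCL. Its values were 132.5 and 68.7 normalized reads in LF/LCL, against 114.4, 70.7 and 115.9 in SF/SCL. Both extremes were LF/LCL libraries, and the log2 fold change was -0.04 ± 0.40 (SE; limma adjusted p = 0.985).

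TEK, the angiopoietin receptor, had 532.4 and 272.0 normalized reads in LF/LCL, against 360.8, 254.1 and 484.0 in SF/SCL. Its log2 fold change was 0.10 ± 0.38 (SE; limma adjusted p = 0.947). TIE1 had 255.7 and 98.7 normalized reads in LF/LCL, against 214.2, 117.4 and 290.8 in SF/SCL, with a log2 fold change of -0.29 ± 0.53 (SE; limma adjusted p = 0.886). For both receptors the 2 lowest libraries were LF/LCL replicate 2 and SF/SCL replicate 2, that is, a library from each group.

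That order of the libraries recurred among the members. LF/LCL replicate 2 and SF/SCL replicate 2 were the lowest 2 libraries for 6 of the 9 members tested, namely VEGFA, VEGFB, FLT1, FLT4, TEK and TIE1, compared with 10.4% of all genes tested and with 5 of the 18 endothelial markers measured. These were also the deepest libraries, with 16171541 and 19592174 reads, and the part of depth in this pattern was not tested.

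**Figure D2:**
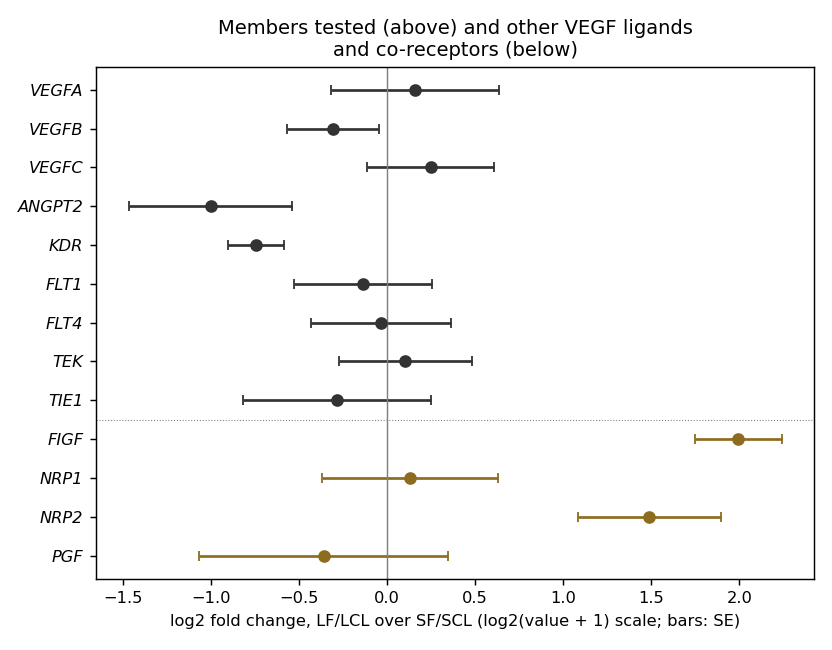
Log2 fold change of LF/LCL over SF/SCL (x axis, log2(value + 1) scale; bars are ± SE from limma) of the 9 members tested and, below the dotted line, of 4 further VEGF ligands and co-receptors. Among the members the bar of KDR (-0.75 ± 0.16) is the narrowest and lies far from 0, while FIGF (1.99 ± 0.25) and NRP2 (1.49 ± 0.41) lie on the opposite side.

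To set the members beside the endothelium in each piece of tissue, each was also expressed relative to the mean log2 level of 18 endothelial markers within the same library (among them CDH5, VWF, CLDN5, ERG and CD34; PECAM1 was not analysed here). The summed level of these markers ran from 9895 to 13003 normalized reads in LF/LCL and from 7990 to 12993 in SF/SCL, and none was at 0. Of the 18 markers, 15 had the higher mean in LF/LCL and 3 in SF/SCL, with a median log2 fold change of 0.31 (0.07 without SF/SCL replicate 2, 0.12 without LF/LCL replicate 1, 0.65 without LF/LCL replicate 2 and 0.64 without SF/SCL replicate 3) beside 0.01 over all genes tested, and limma gave 0 of them an unadjusted p under 0.05. The markers nearest to the threshold were SOX18 (161.9 ± 41.4 against 99.9 ± 26.7 normalized reads), ICAM2 (962.9 ± 189.2 against 589.0 ± 283.2) and EMCN (1672 ± 477.6 against 1161 ± 437.8), LF/LCL being given before SF/SCL (SD, n = 2 and 3). These 3 were all higher on average in LF/LCL, the direction opposite to KDR.

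Relative to the endothelial markers, KDR differed between the groups more than its own level did. The log2 ratio was 2.17 and 2.54 in the LF/LCL libraries and 3.63, 3.64 and 3.02 in the SF/SCL libraries. The groups did not overlap, and their means were 2.35 ± 0.26 (SD, n = 2) and 3.43 ± 0.36 (SD, n = 3), a difference of -1.08 on the log2 scale or 2.11-fold. The two-sided exact permutation p was 0.2, which is the smallest that 2 against 3 libraries allow, and it was 0.48 after adjustment over the 6 ratios computed. Leaving out each library in turn gave differences between -1.28 and -0.89.

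The other receptors, in contrast, varied from library to library along with the endothelial markers. The SD over the 5 libraries of the log2 level fell from 0.48 to 0.20 for TEK, from 0.69 to 0.47 for TIE1, from 0.48 to 0.30 for FLT1 and from 0.44 to 0.32 for FLT4 once the marker level was subtracted. For the ligands VEGFA (from 0.57 to 0.21) and VEGFC (from 0.45 to 0.37) it was likewise smaller. It was larger for the other 4 members, namely KDR (from 0.45 to 0.66), ANGPT1 (from 0.62 to 0.81), ANGPT2 (from 0.76 to 0.79) and VEGFB (from 0.36 to 0.37). A smaller SD on the relative scale was thus seen for 6 of the 10 members, beside 12.4% of all genes tested. These SDs describe 5 libraries and were not tested.

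On this relative scale FLT1, VEGFB and ANGPT2 also separated the groups, so that 4 of the 9 members tested were higher in SF/SCL without overlap, beside 10.6% of all genes in this direction and 12.5% in either. The relative level of FLT1 was lower in LF/LCL than in SF/SCL by 0.47 on the log2 scale, that of VEGFB by 0.64 and that of ANGPT2 by 1.34. TEK (-0.23), TIE1 (-0.62), FLT4 (-0.37), VEGFA (-0.17) and VEGFC (-0.09) overlapped between the groups. These 9 relative differences, KDR included, were all below 0, that of ANGPT1 was 0.31, and they share the endothelial level that was subtracted from each.

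**Figure D3:**
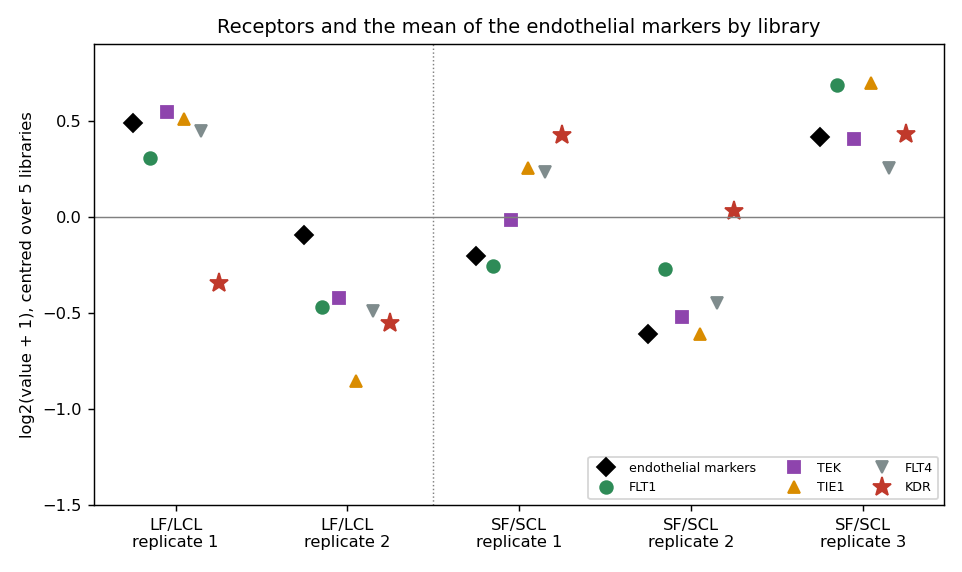
Log2(value + 1) of the 5 receptors and the mean of the 18 endothelial markers (black diamonds) in each library, each centred on its mean over the 5 libraries (y axis, log2 units). TEK (purple squares) follows the markers more closely than KDR (red stars), which lies under them in both LF/LCL libraries, above them in SF/SCL replicates 1 and 2 and level with them in SF/SCL replicate 3.

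KDR was set against 2 other marker lists after its values had been seen, as a description only. Over all genes tested, limma gave 5.86% an unadjusted p under 0.05 with SF/SCL higher and 5.64% with LF/LCL higher. DESeq2 called 1.57% and 1.46%, respectively. The ciliated cell markers, of the epithelial cells whose cilia move oocyte and embryo, were higher in SF/SCL for all 10 genes tested, with 7 at an unadjusted p under 0.05 (limma) and 3 called by DESeq2, a median log2 fold change of -0.50, and summed levels of 44001 to 55519 in LF/LCL compared with 65764 to 66713 in SF/SCL. Relative to these markers, the log2 level of KDR was -0.48 and -0.92 in LF/LCL, against -0.35, -0.79 and -0.30 in SF/SCL. The groups then overlapped, and the difference between the means was -0.22. Relative to the smooth muscle markers, which were higher in LF/LCL for all 10 genes tested (8 at an unadjusted p under 0.05 with limma, 4 called by DESeq2, median log2 fold change 1.37, summed levels of 58729 to 116302 against 16028 to 39533), the difference was -2.09 and the groups did not overlap. Both lists differed between the groups, so subtracting either shifts the log2 difference of every gene by the same amount. The shift therefore does not tell which cells hold KDR, and the share of all genes without overlap on these scales was not computed. The part of either cell type in the difference of KDR was not tested.

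The genes whose pattern over the 5 libraries was closest to that of KDR were not endothelial markers. Among 11952 genes with a symbol and a mean of at least 50 normalized reads, these were CLCN6, a lysosomal chloride transporter (root mean square difference of the centred log2 values 0.0317), SLC4A4, a sodium bicarbonate cotransporter (0.0788), and KRT19, a keratin of simple epithelia (0.0827). The study had listed SLC4A4 and KRT19 together with KDR from these libraries. KRT19 had 3516 and 3166 normalized reads in LF/LCL, against 5805, 5066 and 6749 in SF/SCL. For VEGFA the closest genes were FBLN5, an elastic fibre protein (0.0458), and the endothelial genes ECSCR (0.0641) and CD34 (0.0688). For TEK they were AEBP1, a matrix-associated protein (0.0563), PTH1R, the parathyroid hormone receptor (0.0731), and ZEB1, a mesenchymal transcription factor (0.0757). CD34 had 484.4 and 243.9 normalized reads in LF/LCL, against 353.5, 199.0 and 506.5 in SF/SCL, so that, as for VEGFA, replicate 2 of each group was lowest.

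Ratios between members were taken within a library on the log2(value + 1) scale, where the pseudocount of 1 matters mainly for ANGPT1. The log2 ratio of FLT1 to KDR was -3.19 and -3.76 in LF/LCL, against -4.53, -4.15 and -3.59 in SF/SCL. The difference of 0.61 between the means was accompanied by overlap of the groups (two-sided exact permutation p = 0.4, 0.48 adjusted over the 6 ratios). The ratio of VEGFA to VEGFB was -1.59 and -2.11 in LF/LCL, against -2.17, -2.65 and -2.13 in SF/SCL. These groups did not overlap, by a narrow margin, with a difference of 0.47 (two-sided exact permutation p = 0.2, 0.48 adjusted). TEK to TIE1 (difference 0.39, exact permutation p = 0.4) and ANGPT2 to ANGPT1 (difference -1.65, exact permutation p = 0.4, with ANGPT1 at 2 to 8 reads) overlapped between the groups. With a pseudocount of 5 the difference for ANGPT2 to ANGPT1 was -1.30 (exact permutation p = 0.2). Without LF/LCL replicate 1 the differences were 0.33 for FLT1 to KDR, 0.21 for VEGFA to VEGFB, 0.59 for TEK to TIE1 and -2.78 for ANGPT2 to ANGPT1, and without LF/LCL replicate 2 they were 0.89, 0.73, 0.19 and -0.51.

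The lymphatic side of the system was examined with FLT4, VEGFC and 4 markers of lymphatic endothelium. PROX1, the transcription factor that specifies lymphatic endothelium, had 41.0 and 47.4 normalized reads in LF/LCL, against 91.5, 82.4 and 105.2 in SF/SCL. All SF/SCL libraries were higher, with a log2 fold change of -1.05 ± 0.29 (SE; limma adjusted p = 0.308). PROX1 is also made outside lymphatic vessels. LYVE1, a hyaluronan receptor of lymphatic endothelium, named here outside the rule for named genes, had a log2 fold change of -0.17 with an SE of 1.01, while those of CCL21 and RELN were above 0. CCL21 and RELN were lowest in SF/SCL replicate 2 (10.9 and 16.3 normalized reads) and ranged up to 355.2 and 180.9 in the other libraries. Of the 4 markers 2 were higher in each group, the median log2 fold change was 0.24 with limma (-0.78 without SF/SCL replicate 2) and -0.38 with DESeq2, and the summed level was 434.6 to 485.5 in LF/LCL compared with 144.6 to 1008 in SF/SCL. The ratio of FLT4 to the mean log2 level of these markers differed by -0.15 between the groups (two-sided exact permutation p = 1).

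Further VEGF ligands and co-receptors included differences larger than that of KDR and in the opposite direction. FIGF, an older symbol of VEGFD, encodes a ligand of KDR and FLT4. It had 351.8 and 264.2 normalized reads in LF/LCL, against 82.1, 80.8 and 65.5 in SF/SCL. Both LF/LCL libraries lay far above all of SF/SCL, and the log2 fold change was 1.99 ± 0.25 (SE; limma adjusted p = 0.178; DESeq2 adjusted p = 2.55e-09). FIGF was on a list that the study drew from these same libraries.

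NRP2, a neuropilin that serves as co-receptor of FLT4 and KDR, had 1120 and 525.6 normalized reads in LF/LCL, against 400.3, 237.8 and 212.5 in SF/SCL. Both groups stayed separate, and LF/LCL replicate 1 stood highest. The log2 fold change was 1.49 ± 0.41 (SE; limma adjusted p = 0.313; DESeq2 adjusted p = 0.0150). When each library was left out in turn it ran from 0.95, without LF/LCL replicate 1, to 2.04. NRP2 is also made by smooth muscle and stromal cells, and the smooth muscle markers moved in its direction. Their part in the result was not tested.

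The gene PGF, placental growth factor, a ligand of FLT1, had a log2 fold change of -0.36 ± 0.71 (SE; limma adjusted p = 0.892). NRP1, the co-receptor of KDR, named here although it was outside the rule for named genes, had a log2 fold change of 0.13. Of these 4 genes 3 were higher in LF/LCL, with 2 at an unadjusted p under 0.05 (5.64% of all genes in this direction) and 2 called by DESeq2 (1.46%). The list was written with earlier results known, and the study had listed FIGF from these libraries, so the counts are not independent evidence.

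Partners of TEK and TIE1 did not pass the test either. DOK2, an adaptor bound by active TEK (64.4 ± 19.8 against 39.5 ± 8.08 normalized reads), PTPRB, the endothelial phosphatase that acts on TEK (486.0 ± 122.0 against 407.8 ± 56.1), and ITGB1, an integrin chain (11414 ± 1245 against 10326 ± 1131), were higher on average in LF/LCL (SD, n = 2 and 3), and limma gave adjusted p-values of 0.557, 0.714 and 0.737. All 5 genes tested were higher in LF/LCL, with a median log2 fold change of 0.23 (-0.0049 without LF/LCL replicate 1), and 0 had an unadjusted p under 0.05 with limma. ANGPT4 was not analysed here.

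**Figure D4:**
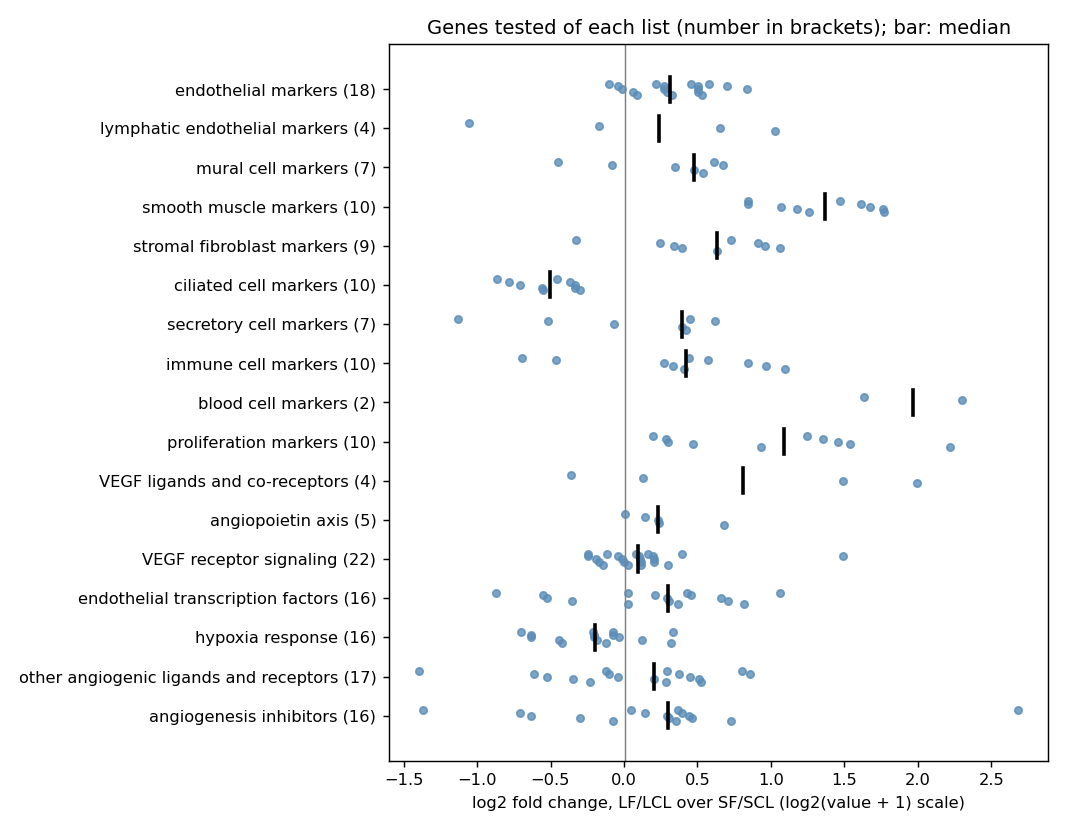
Log2 fold change of LF/LCL over SF/SCL (x axis, log2(value + 1) scale) of each gene tested in the 17 lists, with the median of each list as a black bar. The smooth muscle markers lie wholly to the right of 0 (median 1.37) and the ciliated cell markers wholly to the left (median -0.50), while VEGF receptor signaling genes gather around 0 (median 0.09).

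Signaling proteins downstream of the VEGF receptors held both directions. Of 22 genes tested 14 had the higher mean in LF/LCL and 8 in SF/SCL, with a median log2 fold change of 0.09 (0.00025 without LF/LCL replicate 1). Limma gave 2 of them, PLCG1 and MAPK3, an unadjusted p under 0.05, beside 11.5% of all genes tested. Both were higher in LF/LCL (5.64% of all genes in this direction). The groups did not overlap for 8 genes, of which LF/LCL was the higher in 6. Over all genes tested this share was 30.1% (15% with LF/LCL higher). PLCG1, the phospholipase that binds active KDR, had 1640 and 1419 normalized reads in LF/LCL, against 1197, 1154 and 1130 in SF/SCL, and the groups did not overlap (log2 fold change 0.39 ± 0.11, SE; limma adjusted p = 0.308). MAPK3, the kinase ERK1, had a log2 fold change of 0.30 ± 0.11 (SE; limma adjusted p = 0.409). The adaptor SH2D2A, at 25.8 ± 3.26 (SD, n = 2) against 9.37 ± 4.68 (SD, n = 3) normalized reads, had a log2 fold change of 1.49 ± 0.63 (SE; limma adjusted p = 0.448). PLCG1, too, had been listed by the study from these libraries.

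Endothelial transcription factors held both directions. Of 16 tested, 12 had the higher mean in LF/LCL and 4 in SF/SCL (median 0.30, but 0.05 without LF/LCL replicate 1 and 0.02 without SF/SCL replicate 2), and 2 and 3, respectively, had an unadjusted p under 0.05 with limma. Over all genes tested these shares were 5.64% and 5.86%. LMO2, a partner of TAL1 in blood and endothelial cells, had 1731 and 1864 normalized reads in LF/LCL, against 2520, 2477 and 2780 in SF/SCL (log2 fold change -0.53 ± 0.10, SE; limma adjusted p = 0.223; DESeq2 adjusted p = 0.00525). VEZF1, a zinc finger factor of vascular endothelium that the study also listed, had a log2 fold change of -0.35 ± 0.10 (SE; limma adjusted p = 0.330). Both shared the direction of KDR, whereas FOXO1, a restraint on endothelial growth, had 0.71 ± 0.26 (SE; limma adjusted p = 0.396).

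Oxygen sensing and hypoxia-induced genes, among which VEGFA is usually counted, were mostly higher in SF/SCL. Of 16 genes tested 13 were higher in SF/SCL and 3 in LF/LCL, with a median log2 fold change of -0.19 and 1 gene in each direction at an unadjusted p under 0.05 with limma. Over all genes tested, 5.86% were under this limit with SF/SCL higher and 5.64% with LF/LCL higher. PDK1, which limits the oxidation of pyruvate in mitochondria, was 219.5 ± 37.9 (SD, n = 2) against 344.6 ± 75.5 (SD, n = 3) normalized reads (limma adjusted p = 0.409). P4HA1, a collagen prolyl hydroxylase, had a log2 fold change of -0.44 ± 0.19 (SE; limma adjusted p = 0.454). HIF1A itself, the oxygen-regulated factor, was higher in LF/LCL (0.32 ± 0.12, SE; limma adjusted p = 0.396), and VEGFA overlapped between the groups as described above.

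Among 17 other angiogenic ligands and receptors tested, 9 had the higher mean in LF/LCL and 8 in SF/SCL (median 0.20, but -0.17 without LF/LCL replicate 1). EDNRB, an endothelin receptor, had 487.9 and 522.7 normalized reads in LF/LCL, against 1304, 1478 and 1220 in SF/SCL (log2 fold change -1.40 ± 0.12, SE; limma adjusted p = 0.178; DESeq2 adjusted p = 4.94e-13). CXCR4, the receptor of CXCL12, was 484.4 ± 66.4 (SD, n = 2) against 266.6 ± 16.8 (SD, n = 3) normalized reads (limma adjusted p = 0.212; DESeq2 adjusted p = 0.00189). CXCR4 is also made by leukocytes, whose markers were higher in LF/LCL for 8 of 10 genes. Of these, 5 had an unadjusted p under 0.05 with limma (5.64% of all genes in this direction). The other 2 markers, CD14 and CD68, were higher in SF/SCL (log2 fold changes of -0.46 and -0.70). The study had listed CD3E, CD52 and IL2RG from these same libraries, so the count is not independent of its calls. The part of leukocytes in the result was not tested. PDGFB, which draws pericytes to vessels, had a log2 fold change of 0.45 ± 0.16 (SE; limma adjusted p = 0.387). The study had listed EDNRB and CXCR4 from these same libraries. For CXCR4 it also reported higher RNA in LF/LCL by qPCR in an expanded set of cows.

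Secreted and intracellular inhibitors of vessel growth were more often higher in LF/LCL, 11 of the 16 entries tested, with a median log2 fold change of 0.30 that was -0.20 without LF/LCL replicate 1. ANGPTL4 was entered more than once, with log2 fold changes of 0.05 and 0.37. ANGPTL1, an angiopoietin-like protein that does not bind TEK, had 21.1 and 15.5 normalized reads in LF/LCL, against 2.1, 3.1 and 1.1 in SF/SCL. The groups were well apart but rest on few reads (log2 fold change 2.68 ± 0.69, SE; limma adjusted p = 0.302), the edgeR exact test called it (adjusted p = 0.00847), DESeq2 gave no adjusted p, and the study had listed it from these libraries. TIMP3, which also blocks VEGFA binding to KDR, had a log2 fold change of 0.46 ± 0.23 (SE; limma adjusted p = 0.502), and ADAMTS1, a protease that binds VEGFA, had 0.72 ± 0.36 (SE; limma adjusted p = 0.506).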

How the data were processed

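Ampulla tissue of 5 cows was analysed by RNA-Seq, of which the labels assign 2 to LF/LCL and 3 to SF/SCL, with replicates numbered in accession order. The authors made TruSeq libraries from polyA-selected RNA, sequenced read pairs, filtered them with seqyClean, and per the labels used CASAVA 1.8.2, TopHat2 2.0.8, Bowtie2 2.1.0, SAMtools 0.1.18, HTSeq 0.5.4p2 and DESeq 1.12.1. Mapping was to the masked UMD assembly of cattle, and only uniquely mapped reads were counted, so near-identical or overlapping genes are uncertain. A strand setting is not given in the sources used here. The deposited values are a normalized signal, namely reads divided by the size factor that DESeq gave the authors for each library. Undoing that division returned whole reads (100% of nonzero values within 0.05 of a whole read), and the reads recovered in this way totalled 13418278 to 19592174 per library, which limits the precision of genes with few reads, ANGPT1 above all. The table held 0 columns of other samples and no coordinates or sequences, and the isthmus was not analysed here.

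Genes with a mean over 5 were tested on log2(value + 1) with limma 3.58.1 in R 4.3.3 (lmFit and eBayes with trend and robust), two-sided and without covariates, with Benjamini-Hochberg adjustment over 15815 genes at a threshold of 0.05. The log2(value + 1) scale understates the change of low genes. The negative binomial test of DESeq, which the study used, was not run. In its place edgeR 4.0.16 (quasi-likelihood and exact tests with TMM) and DESeq2 1.42.0 were run on the recovered reads as alternatives, beside pseudocounts of 0.5 and 5, other filters and scalings, limma without trend and robust, and omission of each library. Ratios within a library were compared by two-sided exact permutation tests over libraries. The limma fit was tested on simulated counts with the same dispersion for every gene. No batch is named in the labels, and p-values measure the spread between these cows.

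The members and the 17 gene lists (7 pathway and 10 marker lists) were chosen with earlier results of these data known. Genes named are the 10 members, for each pathway list and for the endothelial, lymphatic, mural and smooth muscle markers the 3 genes with the smallest limma p, and for KDR, VEGFA and TEK the 3 genes with the smallest root mean square difference in centred log2 values. Lists are described by counts and medians, with no set test.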

Additional observations from a re-analysis of the deposited data

How the results depend on the processing

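Genes called numbered 336 with the edgeR exact test and 460 with DESeq2, 0 in every other setting, and 0 to 0 when each library was left out with limma. Members called numbered 1 (KDR) with the edgeR exact test and 1 with DESeq2, and otherwise 0. When each library was left out, members with an unadjusted p under 0.05 numbered 1 to 2 (2 without LF/LCL replicate 1) and members whose groups did not overlap 2 to 6 (6 without LF/LCL replicate 1, 4 without LF/LCL replicate 2, where 1 library stands against 3). The log2 fold change of FLT4 was 0.0045 with both edgeR tests and 0.0048 with DESeq2, and that of CCL21 was -0.00011 with edgeR's quasi-likelihood test, -0.0076 with its exact test and -0.0064 with DESeq2. Omitting each library in turn turned the sign of VEGFA (-0.26 to 0.58), FLT1 (-0.52 to 0.25), FLT4 (-0.50 to 0.43), TEK (-0.38 to 0.59) and TIE1 (-0.97 to 0.40). It also turned PGF (-1.28 to 0.56), NRP1 (-0.57 to 0.83), PTPRB (-0.020 to 0.50), ABCC9 (-0.12 to 1.46), KCNJ8 (-0.012 to 0.97), CCL21 (-0.33 to 2.12) and RELN (-0.42 to 1.27), and the FLT4 ratio to lymphatic markers (-0.62 to 0.51). Medians that turned were those of the mural markers (-0.34 to 0.97), lymphatic markers (-0.78 to 0.82), partners of TEK (-0.0049 to 0.37), other angiogenic genes (-0.17 to 0.45) and inhibitors (-0.20 to 0.54). KDR (adjusted p 0.234 to 0.447 without a library, 0.00671 to 0.421 in other settings), ANGPT2, VEGFB and VEGFC kept their sign in all settings. The adjusted p of ANGPT2 was never under 0.445. With 1 LF/LCL library left, that library was assumed to vary like the SF/SCL libraries. The cause of these changes was not tested. No paired analysis was made because the libraries of both groups came from different cows. With 2 against 3 libraries an exact permutation test cannot give a two-sided p under 0.2.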

Other observations

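Cells that surround vessels were described by 7 mural markers, with 5 higher in LF/LCL, 2 higher in SF/SCL, a median log2 fold change of 0.48 (-0.34 without LF/LCL replicate 1) and 0 at an unadjusted p under 0.05 with limma. CSPG4, the pericyte proteoglycan NG2, had 466.8 and 596.2 normalized reads in LF/LCL, against 430.4, 210.6 and 454.0 in SF/SCL. ABCC9 and KCNJ8, the subunits of the potassium channel of pericytes and vascular smooth muscle, had log2 fold changes of 0.67 ± 0.49 and 0.48 ± 0.46 (SE), and both were highest in LF/LCL replicate 1. LMOD1, DES and PLN, proteins of the contractile cell, had log2 fold changes of 1.18 ± 0.30, 1.76 ± 0.45 and 0.84 ± 0.23 (SE; limma adjusted p = 0.302, 0.306 and 0.312; DESeq2 adjusted p = 0.0113, 0.00260 and 0.0430; edgeR exact test adjusted p = 0.0117, 0.00758 and 0.0486).

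The other cell types gave the following medians and counts with limma. Over all genes tested, 5.64% were higher in LF/LCL at an unadjusted p under 0.05. Stromal fibroblast markers were higher in LF/LCL for 8 of 9 genes (median log2 fold change 0.63, 0 at an unadjusted p under 0.05). When each library was left out in turn, this median ran from 0.01 to 1.05. Secretory cell markers were higher in LF/LCL for 4 of 7 (0.40, 3 at an unadjusted p under 0.05), immune cell markers for 8 of 10 (0.43) and proliferation markers for all 10 (1.09, 4 at an unadjusted p under 0.05). With each library left out, these medians ran from 0.17 to 0.49, from 0.35 to 0.55 and from 0.64 to 1.27, in that order. Of the red blood cell markers only 2 entries of the hemoglobin chain HBA could be tested (1.97, or 0.50 to 3.44 with each library left out). ALAS2 was at 0, and the summed level ran from 65.8 to 506.6 normalized reads in LF/LCL and from 16.1 to 233.9 in SF/SCL.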
